A study of Homo sapiens with 6 samples.

Results

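Neural stem cell (NSC) cultures of the human embryonic stem cell line H1 were compared with NSC cultures of the lines HSF1 and HSF6, on 3 of the 6 arrays of the series. Members were the NSC arrays by their labels, with 1 array of H1 and 1 array each of HSF1 and HSF6. Each array measured the mRNA of 1 culture on an Illumina Human-6 beadchip. Probes were ranked by the log2 difference of H1 NSC from the nearer of the HSF arrays, a difference set to 0 where H1 lay between them. A probe was kept where at least 1 NSC array exceeded background, which left 23614 of 48803 probes and 12991 genes with a symbol.

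H1, HSF1 and HSF6 are established lines, and the labels name no genetic change or drug. The H1 cells came from feeder-free culture at Rutgers, and their NSC were obtained in an adherent protocol with B27 and N2 supplements and basic FGF, whereas both HSF lines were cultured and differentiated at UCLA. The line, the site and the differentiation protocol therefore cannot be told apart. The labels of all 3 neural arrays read NSC. In its summary of the sequencing, however, the study lists the neural cultures of HSF1 and HSF6 as NPC and that of H1 as NSC. Whether the neural cultures on the arrays differed in stage was not tested. The study describes genome duplications on chromosomes 12 and 17 in its H1 cells. The other 3 arrays hold the undifferentiated embryonic stem cell (ESC) stage of the same lines.

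Neural stem cells of the early neural tube depend on SOX and POU-domain factors, and Notch signaling holds them in the progenitor state while proneural factors drive neighbouring cells towards neurons. Mesenchymal cells, such as fibroblasts and the cells around vessels and meninges, instead secrete fibrillar collagen and small proteoglycans and carry PDGF receptors. Cultures from pluripotent cells can hold both kinds of cell. In bulk RNA, fewer cells of a type and less RNA per cell cannot be told apart.

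Values are deposited signals, which are linear intensities already brought to one distribution on all arrays. Background formed a peak at a signal of 127, and probes were treated as detected over 145. Differences and folds are on the log2 scale of the background-corrected signal plus 16, and values under the limit were raised to it. The added 16 shrinks the change of dim genes, whereas the correction makes folds larger than the ratios of the printed signals. With a signal just above the limit, the fold depends strongly on the correction and is imprecise. Where every array of the dimmer side lay under the limit, the fold is a lower bound. limma was fitted to all 6 arrays in 4 groups, with Benjamini-Hochberg adjustment over all probes kept. Its spread came from HSF1 against HSF6 alone, so that H1, with 1 array, was assumed to vary like them. The p-values thus set the H1 difference against the difference between the lines HSF1 and HSF6, and no line had replicate cultures within a stage. According to the study, HSF1 and HSF6 had been examined before because they diverged in NSC differentiation.

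H1 NSC stood apart from the HSF cultures. At least a 2-fold difference separated 3023 genes between H1 NSC and HSF1 NSC and 2661 genes between H1 NSC and HSF6 NSC, against 715 genes between HSF1 NSC and HSF6 NSC. The correlations over genes were 0.875, 0.889 and 0.968 in the same order. Among the ESC arrays the distances were more alike, with 2100, 1812 and 1289 genes. Between the NSC and ESC arrays of one line, 4461 genes were at least 2-fold apart in H1, against 3713 in HSF1 and 3562 in HSF6. All of these counts cover only genes above background on at least 1 NSC array. Genes detected in ESC alone were left out, so the distances that involve ESC arrays are not distances over all expressed genes.

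**Figure D1:**
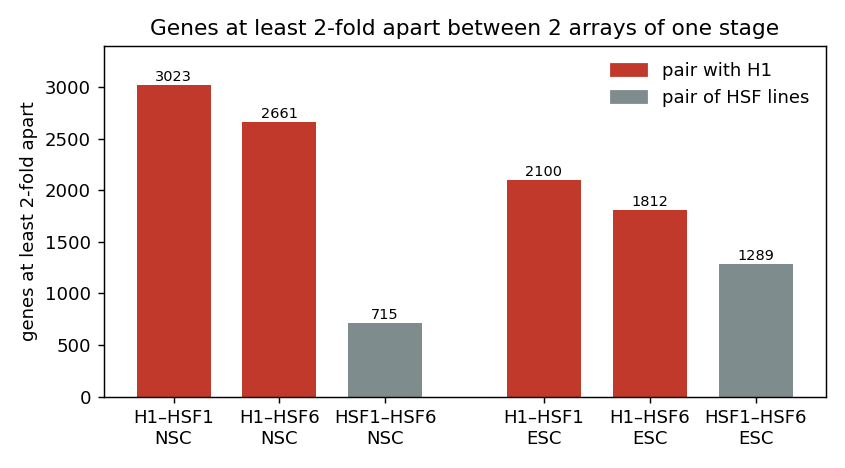
Number of genes at least 2-fold apart (vertical axis) for each pair of arrays of one stage. Only genes above background on at least 1 NSC array were counted. Pairs that hold H1 are in red and the pair of HSF lines is in grey. The NSC pairs with H1 reach 3023 and 2661 genes, against 715 for the HSF pair, while the ESC pairs lie between 1289 and 2100 genes.

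H1 NSC lay at least 2-fold above both HSF cultures in 1009 genes (7.77% of all genes) and at least 2-fold below both in 1061 genes (8.17%). In probes rather than genes, 1405 were higher (5.95%) and 1558 lower (6.6%), of which 526 (2.23%) and 561 (2.38%) passed the limma test described above. At 4-fold, 324 genes were higher and 317 were lower. With limma, 374 of the higher genes (2.88% of all genes) and 388 of the lower genes (2.99%) had an adjusted p under 0.05. The fit used the same NSC values as the ranking, with 1 array of H1, so these counts describe the size of a difference against the spread of HSF1 and HSF6 and are no independent support for the ranking. An adjusted p over the threshold does not show that values did not differ. The calls rest on having both HSF NSC arrays: without HSF6 NSC 50 genes rose and 47 fell, and without HSF1 NSC limma called 0 genes either way, although 954 higher and 1057 lower genes had an unadjusted p under 0.05.

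Only transcripts whose symbol names them as a microRNA host gene were counted here, and hosts with other symbols were not. Of 9 such transcripts detected, 4 were at least 2-fold lower in H1 NSC and 0 were higher. Over all genes, 8.17% were lower and 7.77% higher. The other 5 hosts were under 2-fold apart. Among them, MIR1915HG, MIR217HG, MIR34BHG and MIR3681HG lay near the limit of 145, with signals from 122 to 168 on the NSC arrays. At such signals a 2-fold difference could hardly be called in either direction. MIR124-1HG, another host of miR-124, was at 109.8 in H1 NSC, against 180.2 in HSF1 NSC and 229 in HSF6 NSC. The arrays measured the host transcripts and not the mature microRNAs. MIR9-1HG, MIR181A2HG and MIR99AHG were chosen for display after their values were seen, because these hosts were lower in H1 NSC, and their mature sequences are given from RefSeq (GRCh38.p14), 5′ to 3′, with the seed (bases 2 to 8) in capitals.
hsa-miR-9-5p: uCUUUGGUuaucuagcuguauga
hsa-miR-9-3p: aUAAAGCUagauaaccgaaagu
hsa-miR-181a-5p: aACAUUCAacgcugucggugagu
hsa-miR-181b-5p: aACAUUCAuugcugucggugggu
hsa-miR-99a-5p: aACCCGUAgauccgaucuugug
hsa-let-7c-5p: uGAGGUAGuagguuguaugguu
hsa-miR-125b-5p: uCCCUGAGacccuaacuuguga
The 2 arms of miR-9 lie on the minus strand at chr1:156420392-156420414 and chr1:156420354-156420375. miR-181a and miR-181b share 1 seed and lie at chr9:124692480-124692502 and chr9:124693725-124693747, while miR-99a, let-7c and miR-125b have 3 different seeds and lie on chromosome 21.

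MIR9-1HG, the host of a copy of the neural microRNA miR-9, had a signal of 121 in H1 NSC, below the limit, against 895 in HSF1 NSC and 958 in HSF6 NSC, and fell at least 22.2-fold (adjusted p = 0.00525 from limma). MIR124-2HG, a host of the neuronal microRNA miR-124, had 132 in H1 NSC, against 2121 in HSF1 NSC and 3315 in HSF6 NSC, at least 57.0-fold less (limma adjusted p = 0.00599). Both hosts were thus at background in H1 NSC and well above it in both HSF cultures. MIR181A2HG had 485 in H1 NSC, against 1013 and 1021 in HSF1 and HSF6 NSC, a 2.42-fold difference that did not pass the test (adjusted p = 0.0735 from limma). MIR99AHG had 221 in H1 NSC, against 358 and 475 in HSF1 and HSF6 NSC, a 2.26-fold difference that did not pass either (adjusted p = 0.0825). LIN28B, which blocks maturation of let-7, had 109 in H1 NSC, below the limit, against 622 and 456 in HSF1 and HSF6 NSC (at least 9.79-fold lower, adjusted p = 0.00613).

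The labels were then set against the markers of the cell types. SOX2, the neural progenitor and pluripotency factor, had a signal of 790 in H1 NSC, against 6223 in HSF1 NSC and 6337 in HSF6 NSC. PAX6, a homeobox factor of neural progenitors, had 138 in H1 NSC, below the limit, against 591 and 413 in HSF1 and HSF6 NSC. SOX1, the earliest neural SOX factor, lay below the limit in all 3 NSC cultures, at 119, 141 and 131. Of 6 neural progenitor markers, 3 were above the limit in H1 NSC and 5 in each HSF culture, with a summed signal above background of 1574 in H1 NSC, 10764 in HSF1 NSC and 10125 in HSF6 NSC. The 5 neuronal markers were all above the limit in every culture, and their summed signal was 3314 in H1 NSC, against 15379 and 18269 in HSF1 and HSF6 NSC. The 6 fibroblast markers were above the limit in every culture too, with a sum of 115258 in H1 NSC, against 25528 and 36487 in HSF1 and HSF6 NSC. H1 NSC therefore had the lowest neural and the highest fibroblast marker sum, but the HSF cultures were not free of mesenchymal transcripts: COL3A1, a fibrillar collagen, had 21658 in H1 NSC, 17309 in HSF1 NSC and 20573 in HSF6 NSC. The part of such cells in any result was not tested. The pluripotency factors POU5F1 and NANOG, the endoderm factors SOX17 and FOXA2, the mesoderm factor TBXT, the blood cell marker PTPRC and the crest and glial factor SOX10 were below the limit in all 3 NSC cultures. Other markers of some of these types were above it in some or all cultures. DNMT3B had 198 in H1 NSC, against 386 and 375 in HSF1 and HSF6 NSC, and LIN28A 117, 257 and 180 in the same order. The crest marker TFAP2A had 667 in H1 NSC, against 780 and 717 in the HSF cultures. The epithelial markers EPCAM and CDH1 were just above the limit in every culture, at 162 and 180 in H1 NSC.

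**Figure D2:**
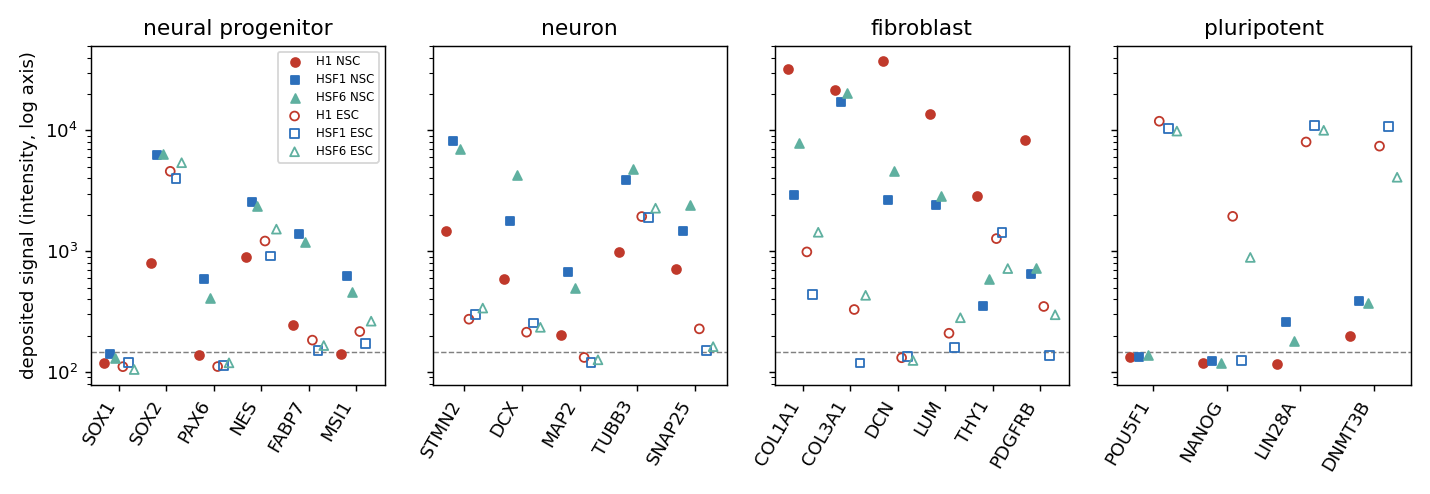
Deposited signal (vertical log axis) of marker genes of 4 cell types on the NSC arrays (filled) and ESC arrays (open) of H1 (red circles), HSF1 (blue squares) and HSF6 (green triangles), each point 1 array; the dashed line is the background limit. SOX2 was at 790 in H1 NSC, against 6223 and 6337 in the HSF NSC arrays, while DCN was at 37356 in H1 NSC, against 2658 and 4605.

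The neural progenitor list was nearly one-sided. Counts in this and the following lists stand beside 7.77% of all genes higher in H1 NSC and 8.17% lower. Of 24 genes listed, 22 were detected, of which 15 were lower in H1 NSC and 0 were higher, with a median difference of -2.62, against a median of 0 over all genes. With limma 12 of them fell. PTPRZ1, a receptor phosphatase of radial glia, had a signal of 157 in H1 NSC, against 2878 and 2406 in HSF1 and HSF6 NSC (50.3-fold lower). POU3F2, a POU-domain factor also known as BRN2, had 149 in H1 NSC, against 1948 and 3621 in HSF1 and HSF6 NSC (47.5-fold lower), and a further probe differed by -3.93 on the log2 scale. DACH1, a transcriptional cofactor, had 170 in H1 NSC, against 2910 and 2623 in HSF1 and HSF6 NSC (43.1-fold lower), though its other probes differed by only -0.83 to -0.11. SOX2 fell by 3.17 on the log2 scale in H1 NSC (adjusted p = 0.00997 from limma) and PAX6 at least 8.56-fold lower (adjusted p = 0.0101 from limma), while the other detected probe of PAX6 showed no difference. NES, the intermediate filament nestin, was at 886 in H1 NSC, against 2564 and 2360 in HSF1 and HSF6 NSC, a 2.90-fold difference that did not pass the test (adjusted p = 0.0973). SOX9, a factor of progenitors, glia and cartilage, went the other way without reaching 2-fold, at 2907 in H1 NSC, against 2330.2 and 1608 in HSF1 and HSF6 NSC.

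Outside this list, SOX21, a SOX factor of neural progenitors, was at 161 in H1 NSC, against 2411 and 3138 in HSF1 and HSF6 NSC (46.5-fold lower, limma log2 difference -5.74 with a standard error of 0.37, adjusted p = 0.00525). ADD2, a cytoskeletal adducin, was at 175 in H1 NSC and at 2315 in both HSF cultures. The membrane glycoprotein GPM6A had 146 in H1 NSC, against 1028 and 1342 in HSF1 and HSF6 NSC. Each of these genes was close to background in H1 NSC and far above it in both HSF cultures.

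The Notch pathway was divided. Of 18 detected genes of the pathway, 5 were lower in H1 NSC and 2 were higher, and with limma 4 fell and 0 rose. The target HES5 had a signal of 135 in H1 NSC, below the limit, against 4115 in HSF1 NSC and 1339 in HSF6 NSC, and fell at least 34.8-fold (adjusted p = 0.0112 from limma). The ligand DLL1 had 211 in H1 NSC, against 2448 and 1534 in HSF1 and HSF6 NSC (14.2-fold lower), and DLL3, a divergent ligand, 173 in H1 NSC, against 680.0 and 1104 in the HSF cultures (9.18-fold lower, with a further probe at -0.59). Of the receptors, NOTCH1 lay below both HSF cultures, as the ligands did, and NOTCH3 above both. NOTCH1 had 1573 in H1 NSC, against 3230 and 2549 in HSF1 and HSF6 NSC, and NOTCH3 2677 in H1 NSC, against 1804 and 2040 in the HSF cultures, neither 2-fold apart. LFNG, a glycosyltransferase that modifies Notch, was higher at 3166 in H1 NSC, against 951 and 612 in HSF1 and HSF6 NSC, without passing the test.

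The 300 bases around the start of HES5 are shown because the motif TGGGAA, the core letters to which the Notch effector RBPJ is known to bind, occurs there more than once. HES5 lies on the minus strand of chromosome 1, and its window is chr1:2530214-2530513 (RefSeq, GRCh38.p14). The motif is in capitals on either strand.
HES5: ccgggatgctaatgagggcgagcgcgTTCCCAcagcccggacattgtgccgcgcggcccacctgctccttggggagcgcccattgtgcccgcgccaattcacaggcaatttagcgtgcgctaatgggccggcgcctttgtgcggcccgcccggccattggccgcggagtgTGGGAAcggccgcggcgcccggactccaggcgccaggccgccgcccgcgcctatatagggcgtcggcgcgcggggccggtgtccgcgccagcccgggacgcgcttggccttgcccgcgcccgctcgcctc
The 2 matches begin at -224 and -80 relative to the start. Counting both strands, TGGGAA was found in 6 of the 14 promoters matched in the Notch list (42.9%), against 21.97% of all promoters of detected genes, 23.29% of those higher in H1 NSC and 20.87% of those lower. A match is a description and not a site of binding.

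Proneural and neuronal genes were called in 1 direction only, lower in H1 NSC. Of 13 detected proneural factors and Delta ligands, 10 were lower in H1 NSC and 0 were higher (9 fell with limma), with a median difference of -3.15. NEUROG2, a proneural factor, had a signal of 135 in H1 NSC, below the limit, against 1777 and 1039 in HSF1 and HSF6 NSC (at least 26.3-fold lower). HES6, which promotes neuronal differentiation, had 423 in H1 NSC, against 6562 and 4244 in HSF1 and HSF6 NSC (13.2-fold lower), and ELAVL3, a neuronal RNA-binding protein, 163 in H1 NSC, against 2078 and 2144 in the HSF cultures (37.9-fold lower). Of 26 detected neuronal genes, 21 were lower and 0 higher (15 fell with limma), with a median of -2.15. SYT4, a synaptotagmin, had 129 in H1 NSC, below the limit, against 2236 and 3307 in HSF1 and HSF6 NSC (at least 60.3-fold lower). INA, a neuronal intermediate filament, had 186 in H1 NSC, against 2401 and 3096 in HSF1 and HSF6 NSC (30.7-fold lower). STMN2, a microtubule regulator of growth cones, remained well above background at 1459.9 in H1 NSC, against 8177 and 6959 in HSF1 and HSF6 NSC. DCX, a microtubule-associated protein of migrating neurons, was above background in H1 NSC as well, at 584 in H1 NSC, against 1794 and 4239 in HSF1 and HSF6 NSC. Among the genes ranked lowest were also the neuronal septin SEPTIN3, the endocytic adaptor SNAP91 and KIF1A, a kinesin motor of axonal transport, which was at 215 in H1 NSC, against 4817 and 4343 in HSF1 and HSF6 NSC.

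**Figure D3:**
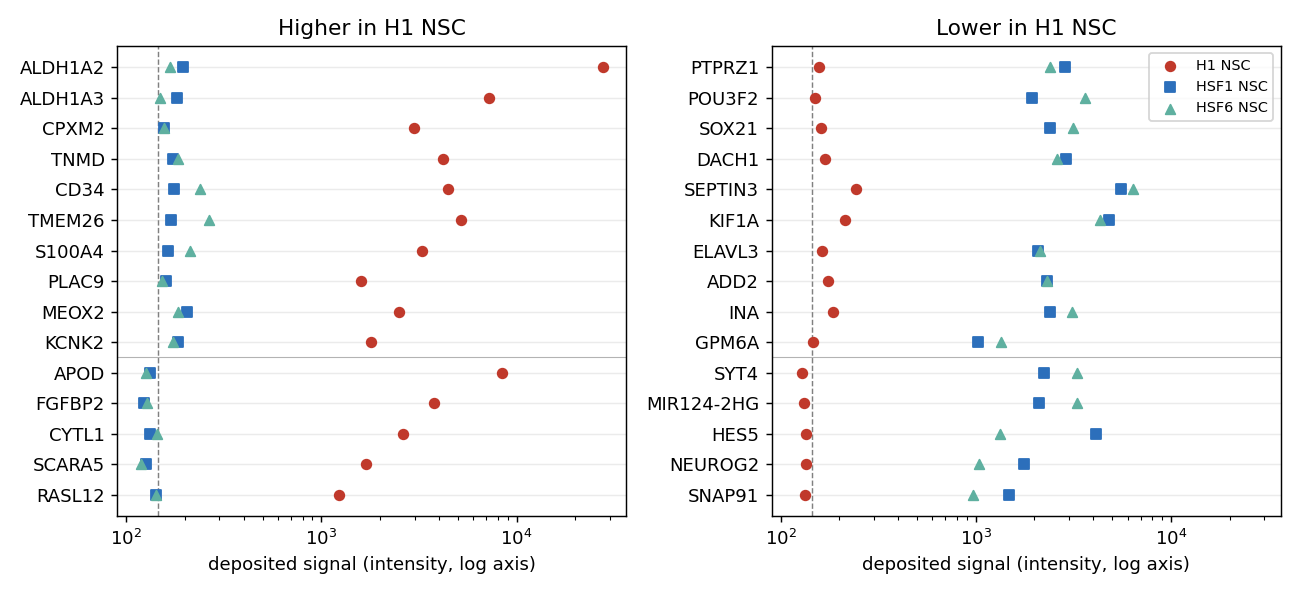
Deposited signal (horizontal log axis) in H1 NSC (red circles), HSF1 NSC (blue squares) and HSF6 NSC (green triangles) of the 15 leading genes in each direction, each point 1 array; the dashed line is the background limit, and genes under the grey line have every array of the dimmer side below it. The genes were chosen by this difference; ALDH1A2 is at 27722 in H1 NSC, against 195 and 168 in HSF1 and HSF6 NSC.

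Regional factors separated the HSF cultures from each other as well. Over all genes, 8.17% were lower and 7.77% higher in H1 NSC. Of 17 detected forebrain factors, 3 were lower in H1 NSC and 2 were higher. The zinc finger factor ZIC2 had 340.2 in H1 NSC, against 11391 and 4952 in HSF1 and HSF6 NSC (21.2-fold lower, adjusted p = 0.0136 from limma). OTX2, a fore- and midbrain homeobox factor, was high in HSF1 alone, at 164 in H1 NSC, against 6236 in HSF1 NSC and 165 in HSF6 NSC. LHX2 behaved alike, at 442 in H1 NSC, against 3156 in HSF1 NSC and 136 in HSF6 NSC, so that H1 lay between the HSF cultures. Of 21 detected HOX genes, 4 were higher in H1 NSC and 3 were lower. HOXC6 had 6698 in H1 NSC, against 1074 and 1756 in HSF1 and HSF6 NSC, with further probes at 0 and 0.21 on the log2 scale. HOXD1 rose 6.44-fold at 803 in H1 NSC, against 212 and 219 in HSF1 and HSF6 NSC (adjusted p = 0.0101 from limma). HOXB2, a hindbrain gene, had 389 in H1 NSC, against 918 and 2413 in HSF1 and HSF6 NSC, and IRX3 317 in H1 NSC, against 3835 and 2659 in the HSF cultures.

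Among genes above background on all 3 NSC arrays, the one furthest above both HSF cultures was an enzyme of retinoic acid synthesis. ALDH1A2, a retinaldehyde dehydrogenase, had a signal of 27722 in H1 NSC, against 195 and 168 in HSF1 and HSF6 NSC, a 330.4-fold difference (limma log2 difference 8.65 with a standard error of 0.41, adjusted p = 0.00525). ALDH1A3, a related enzyme, had 7259 in H1 NSC, against 183 and 149 in HSF1 and HSF6 NSC (99.8-fold higher, adjusted p = 0.00525). Further probes of both genes differed by 6.13 and 5.92 on the log2 scale. Both enzymes were near background in the HSF cultures. CYP26A1, which degrades retinoic acid, had 141 in H1 NSC, below the limit, against 2656 in HSF1 NSC and 415 in HSF6 NSC (at least 8.60-fold lower), without passing the test (adjusted p = 0.0962). Of 15 detected genes of retinoic acid metabolism and response, 5 were higher and 3 lower, and 3 rose with limma, the third being ALDH1A1. Further probes of CYP26A1 differed by -1.39 to 0 on the log2 scale. The receptors RARA, RARB and RARG were all under 2-fold apart.

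Of 26 detected collagens, 16 were higher in H1 NSC and 2 were lower, with a median difference of 1.28, while 3 rose with limma. COL1A1, a fibrillar collagen, had 32173 in H1 NSC, against 2925 and 7920.04 in HSF1 and HSF6 NSC (4.11-fold higher, adjusted p = 0.173). COL16A1 rose 7.43-fold, at 2278 in H1 NSC, against 275 and 403 in HSF1 and HSF6 NSC (adjusted p = 0.0253 from limma). COL4A6, a basement membrane chain, was lower, at 193 in H1 NSC, against 2708 and 1161 in HSF1 and HSF6 NSC.

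Of 33 detected matrix glycoproteins and proteoglycans, 16 were higher and 1 was lower (6 rose with limma), with a median of 0.75. The small proteoglycan osteoglycin, OGN, had 5135 in H1 NSC, against 311 and 333 in HSF1 and HSF6 NSC (22.7-fold higher, adjusted p = 0.00525). Decorin, DCN, had 37356 in H1 NSC, against 2658 and 4605 in HSF1 and HSF6 NSC (8.29-fold higher, adjusted p = 0.0138). Not all matrix genes shared this order. VCAN, the versican core protein found in progenitors and mesenchyme, was the 1 lower gene, at 1118 in H1 NSC, against 2319 and 2632 in HSF1 and HSF6 NSC, and SPARC, FBLN1, POSTN and TNC were under 2-fold apart or between the HSF cultures.

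The window at the start of OGN is given as the counterpart of that of HES5, chr9:92404650-92404949 on the minus strand (RefSeq, GRCh38.p14), with TGGGAA and the opposite-strand reading of TATAAA in capitals.
OGN: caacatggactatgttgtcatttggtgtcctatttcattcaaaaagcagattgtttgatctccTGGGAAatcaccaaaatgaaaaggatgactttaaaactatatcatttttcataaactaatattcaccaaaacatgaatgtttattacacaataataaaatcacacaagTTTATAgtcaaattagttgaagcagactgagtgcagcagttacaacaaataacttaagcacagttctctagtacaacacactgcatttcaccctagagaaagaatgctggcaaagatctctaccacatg
It holds 0 CG pairs, against 45 in the HES5 window. Over the 760 matched promoters of higher genes the median was 23, against 25 over the 824 of lower genes and 25 over all 10533. TATAAA on either strand was in 10.3% of the higher, 8.62% of the lower and 7.35% of all promoters.

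Of 23 detected mesenchymal transcription factors, 10 were higher in H1 NSC and 1 was lower, and 8 rose with limma. MEOX2, a homeobox factor of somites and limb muscle, had 2494 in H1 NSC, against 205 and 185 in HSF1 and HSF6 NSC (25.4-fold higher, adjusted p = 0.00525 from limma). MEOX1, its relative, had 1085 in H1 NSC, against 167 in HSF1 NSC and 138 in HSF6 NSC (17.5-fold higher), and TBX18, a factor of mural cells and the epicardium, 395 in H1 NSC, against 140.5 and 134 in the HSF cultures (at least 8.05-fold higher). Other regulators of epithelial-mesenchymal transition were under 2-fold apart or lay between the HSF cultures: TWIST1 had 586 in H1 NSC, against 737 and 409 in HSF1 and HSF6 NSC, and ZEB1 725 in H1 NSC, against 553 and 763 in the HSF cultures. SNAI2 was the exception, at 5234 in H1 NSC, against 1259 and 1223 in HSF1 and HSF6 NSC, a 4.47-fold difference that did not pass the test (adjusted p = 0.274).

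Among 23 detected fibroblast surface and receptor genes, 13 were higher in H1 NSC and 1 was lower, and 4 rose with limma. PDGFRB, a PDGF receptor of mural cells and fibroblasts, had 8275 in H1 NSC, against 649 and 721 in HSF1 and HSF6 NSC (13.4-fold higher, adjusted p = 0.104 from limma). CSPG4, the proteoglycan NG2 of pericytes and glial precursors, had 875 in H1 NSC, against 162 and 173 in HSF1 and HSF6 NSC (12.4-fold higher, adjusted p = 0.0219 from limma). S100A4, a calcium-binding protein of fibroblasts, had 3275 in H1 NSC, against 163 and 211 in HSF1 and HSF6 NSC, but did not pass the test (adjusted p = 0.0767), and its other probe differed by 0.36. Of 15 detected smooth muscle contractile genes, 0 were higher and 2 were lower, TPM1 and ACTG2, and neither passed the test. Of 27 detected matrix proteases and inhibitors, 11 were higher and 2 lower. Among the higher were the inhibitors TIMP1 and TIMP3 and the serpin SERPINF1. TIMP1 had 14307 in H1 NSC, against 1652 and 2319 in HSF1 and HSF6 NSC.

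**Figure D4:**
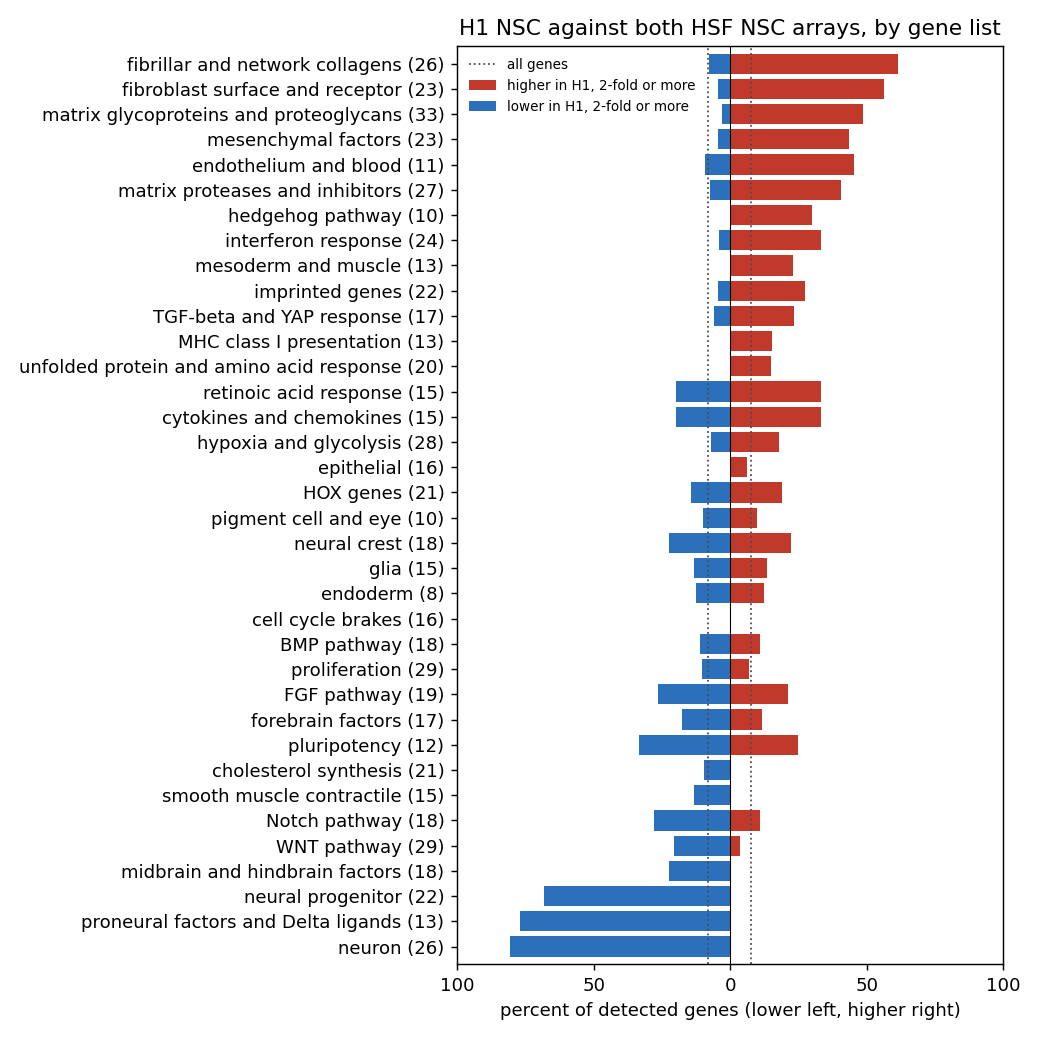
Percent of the detected genes of each list (horizontal axis, number detected in brackets) that were at least 2-fold higher in H1 NSC than in both HSF NSC arrays (red, to the right) or at least 2-fold lower (blue, to the left); dotted lines mark the percent over all genes. Lower genes fill most of the neuronal, proneural and neural progenitor lists, and higher genes lead in the lists of collagens, fibroblast surface genes, matrix glycoproteins and mesenchymal factors.

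Several of the leading genes lie outside these lists. APOD, a lipocalin of fibroblasts and glia, had 8370.4 in H1 NSC, against 133 and 127 in HSF1 and HSF6 NSC, both below the limit (at least 234-fold higher, adjusted p = 0.00462 from limma). TNMD, tenomodulin of tendon and ligament, had 4181 in H1 NSC, against 173 and 185 in HSF1 and HSF6 NSC (55.6-fold higher). CPXM2, a carboxypeptidase-like protein, had 2981 in H1 NSC, against 156 in each HSF culture (64.3-fold higher). These genes were at or near background in both HSF cultures. CD34, a surface sialomucin of blood progenitors, endothelium and some fibroblasts, had 4449 in H1 NSC, against 176 and 238 in HSF1 and HSF6 NSC (34.2-fold higher, with further probes from 0.74 to 5.70 on the log2 scale). Of 11 detected genes of endothelium and blood, 5 were higher and 1 lower, against 7.77% and 8.17% over all genes. SOX18 had 320 in H1 NSC, against 134 and 127 in HSF1 and HSF6 NSC (at least 5.92-fold higher). TEK had 483 in H1 NSC, against 212 and 222 in the HSF cultures (3.36-fold higher, with a further probe at 1.88). CDH5, the endothelial cadherin, was only just above the limit, at 219 in H1 NSC, against 129 and 111 in HSF1 and HSF6 NSC. PECAM1 was at 142, 161 and 144 in the same order, and TIE1 and VWF were below the limit in all 3. SCARA5, a scavenger receptor of fibroblasts, had 1694 in H1 NSC, against 127 and 118 in HSF1 and HSF6 NSC (at least 44.9-fold higher), and CYTL1, a cytokine-like protein of cartilage, 2623 in H1 NSC, against 132 and 144 in the HSF cultures (at least 71.3-fold higher).

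TGFBR3, a coreceptor for TGF-beta, had 6427 in H1 NSC, against 409 and 255 in HSF1 and HSF6 NSC (21.3-fold higher, adjusted p = 0.0116 from limma), and TGFBR2, the ligand-binding receptor, 5376 in H1 NSC, against 332 and 520.2 in the HSF cultures (12.9-fold higher, adjusted p = 0.0104). Further probes of TGFBR2 differed by 0 to 3.09 on the log2 scale. Of 17 detected genes of TGF-beta and YAP response, 4 were higher and 1 lower, against 7.77% higher and 8.17% lower over all genes. The YAP targets CCN1, CCN2 and ANKRD1 were not 2-fold apart. In the FGF list, 4 of 19 detected genes were higher and 5 lower. The higher ones included the feedback inhibitors SPRY4, at 3747 in H1 NSC, against 751 and 703 in HSF1 and HSF6 NSC, and SPRED1, at 7212 in H1 NSC, against 1494 and 1652 in the HSF cultures. The lower ones were FGF2, FGF9, FGF12, FGF13 and the receptor FGFR3, with FGF13, an intracellular channel regulator, at 157 in H1 NSC, against 1011 and 1084 in HSF1 and HSF6 NSC. Of 29 detected WNT genes 6 were lower and 1 higher, led by the receptor FZD3, at 317 in H1 NSC, against 3244 and 2445 in HSF1 and HSF6 NSC.

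Of 29 detected proliferation genes, 2 were higher and 3 lower, shares near the 7.77% and 8.17% over all genes, and none passed the test; MKI67 had 265 in H1 NSC, against 187 and 184 in HSF1 and HSF6 NSC. The proliferation genes called lower included CCNB1, at 338 in H1 NSC, against 721 and 701 in HSF1 and HSF6 NSC. They also included PCNA, at 1498 in H1 NSC, against 3379 and 3310 in the HSF cultures. Further probes of PCNA differed by only 0 to 0.10 on the log2 scale. Of 16 cell cycle brakes detected, 0 were called in either direction. Among imprinted genes, 6 of 22 detected were higher and 1 lower. IGF2, a fetal growth factor, had 383 in H1 NSC, against 131 and 133 in HSF1 and HSF6 NSC (at least 7.70-fold higher). DLK1, a secreted Notch-like regulator, had 36509 in H1 NSC, against 7259 in HSF1 NSC and 762 in HSF6 NSC. Further probes of DLK1 differed by 0.44 to 2.59 on the log2 scale. Of 24 detected interferon response genes, 8 were higher and 1 lower, none past the test. IFIT1 had 873 in H1 NSC, against 396 and 366 in HSF1 and HSF6 NSC, while its other detected probe differed by 0 on the log2 scale.

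Of 16 genes that the study names in describing its NSC cultures, nestin and the neuronal β-III tubulin it stained for included, 11 were detected. Of these, 3 were lower in H1 NSC (PAX6, TUBB3 and NES) and 0 higher. In the study's staining, shown for the line RG7, NSC held nestin but no β-III tubulin, which appeared in the later neural-restricted precursors. TUBB3 is thus not a gene that the study reports as present in NSC. TUBB3, the neuronal tubulin, had 986 in H1 NSC, against 3922 and 4798 in HSF1 and HSF6 NSC, and fell 4.36-fold (adjusted p = 0.0200 from limma). ZFHX4, a homeobox and zinc finger factor, had 970.5 in H1 NSC, against 1268 and 929 in HSF1 and HSF6 NSC, and NR2F1, a nuclear receptor of the developing brain, 1874 in H1 NSC, against 2574 and 2521 in the HSF cultures. The study took some of these genes, such as ZFHX4 and NR2F1, from the present arrays, so the count is not independent evidence.

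The ESC arrays, which the ranking did not use, were read for the same genes. Shares over all genes refer to genes above background on at least 1 NSC array, so genes detected in ESC alone were left out. Of the 1009 genes higher in H1 NSC, 100 (9.91%) were also at least 2-fold above both HSF lines in ESC and 30 were below both, against 3.72% above and 3.19% below over all genes. Of the 1061 lower genes, 80 (7.54%) were also below both HSF lines in ESC and 36 were above both. Most differences were thus not seen at 2-fold before differentiation. The choice of genes by their NSC values favours a difference between H1 and HSF in the change from ESC to NSC, so the next counts are a description. Among the 1061 lower genes, 421 (39.7%, against 10.01% over all genes) were at least 2-fold higher in NSC than in ESC in both HSF lines, and in H1 287 of these (68.2%, against 35.5% over all genes) stayed within 2-fold, 85 were higher in NSC and 49 were lower. Among the 1009 higher genes, 464 (45.99%, against 61.9% over all genes) stayed within 2-fold between the stages in both HSF lines, and 344 of these (74.1%, against 11.6%) were higher in NSC in H1.

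**Figure D5:**
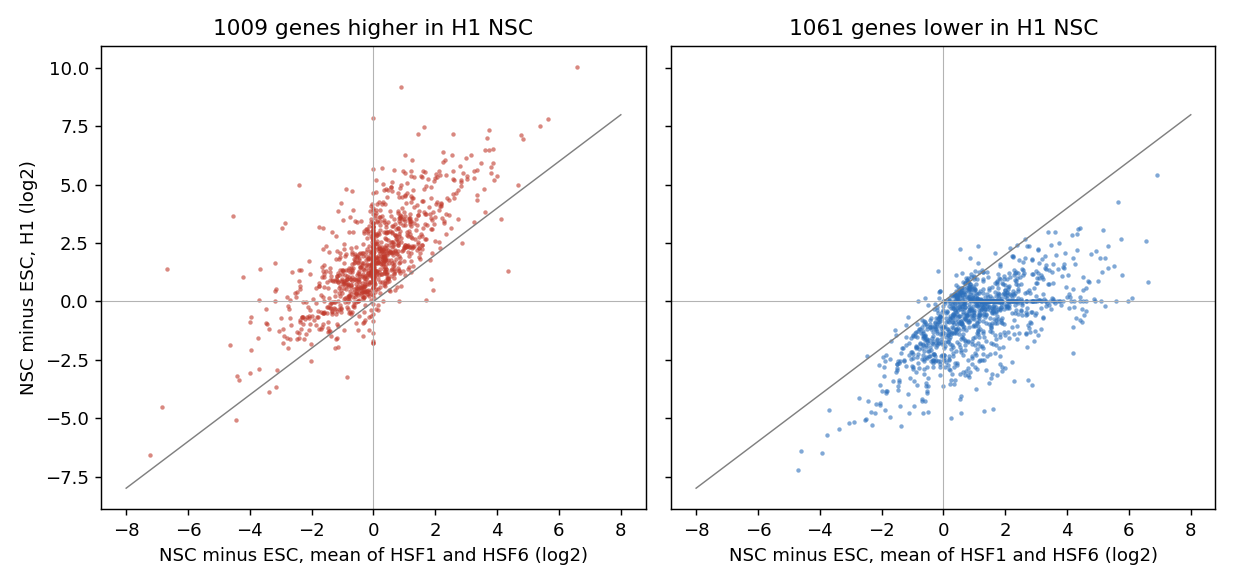
Log2 difference of NSC minus ESC in H1 (vertical axis) against the mean of the same difference in HSF1 and HSF6 (horizontal axis), for the 1009 genes higher in H1 NSC (left) and the 1061 genes lower (right), each point 1 gene; the diagonal marks equal change. Many lower genes lie to the right of 0 with an H1 value near 0, the group in which 421 genes were higher in NSC in both HSF lines and 287 of them stayed within 2-fold in H1.

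Whether the H1 difference itself changed with the stage was tested as an interaction in limma, and 149 genes had an adjusted p under 0.05 (1.15% of all genes). With the line as a block, since both stages come from the same lines, 631 genes passed, including all 149. With an offset of 50 in place of 16 the count was 17, and without either HSF1 NSC or HSF6 NSC it was 0, although 1789 and 1900 genes then had an unadjusted p under 0.05. SYT4, ALDH1A2 and CPXM2 were chosen for a large difference in NSC, which is 1 side of the interaction. A large interaction was thus favoured by the choice, and their values are a description. SYT4 had 272 in H1 ESC, against 274 and 239 in HSF1 and HSF6 ESC, with no 2-fold difference at that stage (interaction log2 difference -6.84). ALDH1A2 had 159 in H1 ESC, against 127 and 150 in HSF1 and HSF6 ESC (interaction 8.03). CPXM2 turned round between the stages, being lower at 201 in H1 ESC, against 372 and 326 in HSF1 and HSF6 ESC (interaction 7.42).

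The chromosomes that the study describes as duplicated in H1 did not stand out in NSC. The median difference of H1 from the average of both HSF lines was -0.02 on chromosome 12 and -0.02 on chromosome 17, within a range of -0.14 to 0.07 over the autosomes. In ESC the medians were 0.11 and 0.06, the highest of the autosomes, and over genes detected on all 6 arrays they were 0.33 and 0.19 in ESC, against -0.03 and -0.01 in NSC. Whether both H1 cultures carried the same chromosomes was not tested.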

How the data were processed

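Messenger RNA of 6 cultures (H1, HSF1 and HSF6, each as ESC and NSC) was measured on 6 arrays, grouped by their labels. The deposited values are linear intensity per probe, which the authors summarised in BeadStudio (version not given in the sources used here). The sorted values of the arrays differ by at most 0.407, so they had been quantile normalized; no background had been subtracted. A table of 24 unnormalized per-array columns could not be paired with samples and was not used. Precision is limited by the number of arrays.

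Background (mode 127, SD 11.2) was corrected with the normexp model of limma 3.58.1 in R 4.3.3 with an offset of 16, and the limit of 145 is the mode plus 1.64 SD. Of 48803 probes, 27578 matched 1 gene symbol, 13 several and 21212 none; symbols were updated to GRCh38.p14. A gene is represented by its detected probe of highest mean signal. H1 NSC was compared with the nearer HSF NSC array, and with limma (residual df 2). limma was fitted to corrected values that were not raised to the limit, because raising left 1538 probes with no spread; raised values are an alternative added after seeing the data. The fit was tested on simulated data.

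Named genes are the 10 largest measured differences and the 5 largest bounds each way, up to 4 called genes of each of 37 lists, and those the study names; others named were chosen after their values were seen, as were the host genes of microRNAs. The members and lists were chosen with earlier results of these data known. Lines pair the stages: deviations of a line from its stage mean correlated between stages, with r of 0.16 for H1, 0.20 for HSF1 and 0.12 for HSF6. Alternatives changed the background, offset, limit, fold, probe, samples and block.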

Additional observations from a re-analysis of the deposited data

Results flagged for a closer look

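The difference of H1 from the HSF lines changed between the stages in 40 of the 148 genes named by rule, by the interaction test of limma (adjusted p from 0.0172 to 0.0489), and this is what drew attention to them. Over all genes the share was 1.15%. Most named genes were chosen for a large difference in NSC, which is 1 side of the interaction, so their count supports nothing. The value in brackets is the log2 difference of H1 from HSF in NSC minus that in ESC. Positive values were found for ALDH1A2 (8.03), ALDH1A3 (6.12), CPXM2 (7.42), TNMD (5.73), CD34 (5.25), TMEM26 (6.03), PLAC9 (5.11), MEOX2 (5.09), KCNK2 (4.41) and APOD (8.34). Further positive values were those of FGFBP2 (5.96), CYTL1 (5.64), SCARA5 (4.49), RASL12 (4.89), RXRG (3.64), OGN (4.63), MEOX1 (4.68), SERPINF1 (4.40), PTGS2 (3.35), NAP1L5 (4.62) and IGF2 (3.18). Negative values were found for PTPRZ1 (-4.82), POU3F2 (-6.03), SOX21 (-4.05), DACH1 (-4.38), SEPTIN3 (-4.83), ADD2 (-4.59), INA (-6.08), GPM6A (-4.85), SYT4 (-6.84) and MIR124-2HG (-5.65). Further negative values were those of NEUROG2 (-5.08), HES6 (-4.67), STMN4 (-5.42), CSPG5 (-4.07), GDF15 (-3.56), ID4 (-3.89), DLL3 (-5.71), FGF13 (-5.24) and CXCR4 (-4.05). In GDF15, DLL3 and CXCR4 the H1 cultures were lower than HSF in NSC (fitted log2 differences -1.50, -3.60 and -2.28) and higher in ESC (2.06, 2.11 and 1.78).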

How the results depend on the processing

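Without background correction, the genes at least 2-fold higher and lower in H1 NSC numbered 522 and 540, against 1009 and 1061; at 1.5-fold they numbered 1977 and 1929, and at 4-fold 324 and 317. Leaving out HSF1 NSC or HSF6 NSC gave 1248 to 1500 higher and 1413 to 1523 lower genes. The limma counts (374 and 388) were 239 and 154 with values raised to the limit in the fit (added after seeing the data), 624 and 661 with the 3 NSC arrays only, and 212 and 218 without the background filter. Leaving out 1 array at a time they ran from 0 to 624 and from 0 to 661. The interaction count (149) was 40 without background correction, 17 with an offset of 50 and 631 with the line as replicate block, and 0 to 348 with 1 array left out. For the comparison of levels between lines the block cannot be fitted. At 1.5-fold, 182 higher and 227 lower genes kept their direction in ESC, against 100 and 80. Over genes detected on all 6 arrays, the ESC medians of chromosomes 12 and 17 were 0.33 and 0.19. Pairs of NSC arrays without background correction (added after seeing the data) were 1604, 1372 and 267 genes apart for H1 with HSF1, H1 with HSF6 and HSF1 with HSF6, and with an offset of 50 the last was 454. The cause of these shifts was not tested. Of 1480 fold differences of the 148 named genes under 10 alternatives, 0 reversed and 81 fell under the fold required, 44 of them where it was 4-fold. Of the 84 named genes called by limma, 44 lost the call with values raised to the limit, 25 without the background filter, 49 without HSF6 NSC and 84 without HSF1 NSC. Signals near the limit of 145 carry little information, and 1 array of H1 gives no measure of its own spread.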

Other observations

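Neural crest genes were divided, beside shares of 7.77% higher and 8.17% lower over all genes. Of 18 detected, 4 were higher and 4 lower in H1 NSC, and 2 rose with limma. ETS1, a transcription factor of crest and endothelium, had 4383 in H1 NSC, against 482 and 488 in HSF1 and HSF6 NSC (11.3-fold higher, adjusted p = 0.0461), and EDNRB, an endothelin receptor, 220.1 in H1 NSC, against 599 and 977 in the HSF cultures. Further probes of EDNRB differed by -0.49 to 0 on the log2 scale. Glial genes were also divided, with 2 of 15 detected higher and 2 lower. APOE, a lipoprotein, had 1591 in H1 NSC, against 289 and 191 in HSF1 and HSF6 NSC. CSPG5, a neural proteoglycan, instead had 143 in H1 NSC, below the limit, against 333 and 371 in the HSF cultures. Of 12 detected pluripotency genes, 3 were higher and 4 lower, with SALL4, a zinc finger factor, at 119.9 in H1 NSC, below the limit, against 442 and 369 in HSF1 and HSF6 NSC. Of 11 detected genes of endothelium and blood, 5 were higher and 1 lower, and of 15 cytokines and chemokines 5 were higher and 3 lower, with PTGS2, the inducible cyclooxygenase, at 761 in H1 NSC, against 159 and 152 in HSF1 and HSF6 NSC.

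Over all genes, 7.77% were higher and 8.17% lower. Higher and lower genes numbered 0 and 4 of 18 detected midbrain and hindbrain factors, 2 and 2 of 18 in the BMP pathway, 3 and 0 of 10 in the hedgehog pathway, 1 and 0 of 16 epithelial genes, 1 and 1 of 8 endoderm genes, and 3 and 0 of 13 genes of mesoderm and muscle. They numbered 1 and 1 of 10 pigment cell and eye genes, 2 and 0 of 13 genes of MHC class I presentation, 0 and 2 of 21 genes of cholesterol synthesis, 5 and 2 of 28 genes of hypoxia and glycolysis, and 3 and 0 of 20 genes of the unfolded protein response. In the BMP pathway ID4, an inhibitor of helix-loop-helix factors, had 144 in H1 NSC, below the limit, against 540.4 and 417 in HSF1 and HSF6 NSC and fell at least 8.67-fold (adjusted p = 0.00997).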
